A study of Homo sapiens with 6 samples.

Results

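The mismatch repair and proofreading genes examined here are 8 genes found by symbol in the RIP-seq table: MSH6, MSH3, PMS1, PMS2, MLH3, EXO1, POLE and POLD1. All 8 were among the 58302 genes listed and all 8 passed the filter on low values, a mean of at least 1 FPKM (reads per kilobase of gene and per unit of library size). The samples were wild-type, untreated SW480 and DLD-1, both human colorectal cancer (CRC) cell lines. Each line gave 1 Input library of total RNA, 1 library of RNA precipitated from lysate by an antibody to NAT10, the enzyme that acetylates cytidine (RIP-seq), and 1 library precipitated with an antibody against N4-acetylcytidine, ac4C (acRIP-seq). The 6 groups held 1 library each, so every difference compares libraries and no p-value was computed. Each line is 1 culture with no perturbation of NAT10, and no library from an unspecific antibody was analysed here.

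Mismatch repair removes bases that DNA polymerases pair wrongly. MutS complexes find the error: MSH6 serves in the complex for single mismatches and MSH3 in the one for larger loops. MutL complexes, which hold PMS2, PMS1 or MLH3, are recruited next, the exonuclease EXO1 digests the faulty strand, and POLD1 fills the gap. POLE and POLD1, the catalytic subunits of the leading- and lagging-strand polymerases, also proofread their own product. Loss of this repair gives tumours with unstable microsatellites, and as background DLD-1 is known to be mismatch repair deficient, whereas SW480 is not.

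The labels of the libraries were examined before the genes. Across 16196 protein-coding genes, the RIP library labelled SW480 had on the log2(FPKM + 1) scale a Pearson r of 0.944 with the Input labelled DLD-1 and 0.871 with its own Input. The RIP library labelled DLD-1 had 0.951 with the Input labelled SW480 and 0.856 with its own. VIM, a mesenchymal filament, stood at 128 and 11.1 FPKM in the RIP library labelled SW480 and the Input labelled DLD-1, against 0.0770 and 0.804 in the Input labelled SW480 and the RIP library labelled DLD-1. KRT20, an intestinal keratin, had the reverse order, at 29.2 and 23.9 FPKM in the last pair against 0 and 0.0426 in the first. Groups were kept as labelled, libraries are named by their label, and ratios are given over both Inputs. Exchanged Input labels would turn the sign of every difference between the Inputs given here, and whether they are exchanged was not tested. Of 11 markers of intestinal epithelium, 8 to 9 reached 1 FPKM in each of these 4 libraries, where they summed to 1402 to 3411 FPKM, with CDX1 at 0 in 3 of them. Of 6 stromal markers 0 to 2 did (sums of 1.19 to 129.7, the highest nearly all VIM), and of 5 leukocyte markers 0 to 1 (sums of 0.0789 to 1.53), with CD3E and COL3A1 at 0 throughout. Reads solved from the FPKM steps summed to at least 25514585 and 20963926 in RIP labelled SW480 and DLD-1 and to 11315955 and 10772667 in the Inputs.

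Levels of the 8 genes were compared first. They lay between 3.10 and 28.0 FPKM, and the genes split into a group that was high in the RIP library labelled SW480 and the Input labelled DLD-1, and a group that was low in both. MSH6, PMS1 and PMS2 formed the first group, and EXO1, MLH3, POLE and POLD1 the second. POLE and POLD1 were highest in the Input labelled SW480, and their RIP library labelled DLD-1 lay nearer to the low pair. MSH3 was in neither group and was higher in both RIP libraries than in both Inputs. In RNA from a whole culture, fewer expressing cells and less RNA per cell cannot be told apart.

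MSH6 (ENSG00000116062, chr2:47783145-47810101, plus strand) stood at 11.6 FPKM in the RIP library labelled SW480, 5.12 in its Input, 3.10 in RIP labelled DLD-1 and 12.7 in the Input of that label. These values rest on at least 2574, 560, 583 and 1281 reads. MSH6 was the lowest of the 8 genes in both the Input labelled SW480 and RIP labelled DLD-1, the pair that also held KRT20 and lacked VIM. MSH3 (ENSG00000113318, chr5:80654652-80876815, plus strand), the other MutS subunit, stood at 12.6, 6.04, 14.7 and 7.06 FPKM in the same order. Both RIP libraries therefore lay above both Inputs for MSH3. Per length, MSH6 over MSH3 was 0.926 (95% counting interval 0.869 to 0.986) and 0.849 (0.744 to 0.969) in the RIP and Input libraries labelled SW480. In those labelled DLD-1 it was 0.210 (0.191 to 0.231) in RIP and 1.80 (1.61 to 2.01) in Input. The lowest and the highest of these 4 ratios thus belonged to the same label. The ratio depended on the Input table. In the Inputs of the acRIP table, described below, MSH6 over MSH3 was 0.529 (0.410 to 0.682) under SW480 and 0.958 (0.741 to 1.24) under DLD-1. MSH6 overlaps FBXO11 in RefSeq, and reads of overlapping genes may be mixed if strand was not used.

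Among the MutL genes, PMS2 (ENSG00000122512, chr7:5970925-6009106, minus strand), which carries the nicking activity of the main complex, stood at 28.0 FPKM in the RIP library labelled SW480, 13.2 in its Input, 13.8 in RIP labelled DLD-1 and 21.7 in its Input. It was the highest of the 8 genes in the first and the last of these libraries. PMS1 (ENSG00000064933, chr2:189784450-189877629, plus strand) had the same order of libraries, at 20.4, 8.29, 10.1 and 17.4 FPKM. PMS2 over PMS1 per length held between 1.25 and 1.59 in the 4 libraries. MLH3 (ENSG00000119684, chr14:75013775-75051467, minus strand), which acts mainly in meiotic recombination, stood at 4.87, 6.71, 7.09 and 3.11 FPKM, so it was low where PMS1 and PMS2 were high. PMS2 over MLH3 was 5.75 (5.36 to 6.18) in the RIP library labelled SW480 and 6.99 (6.15 to 7.93) in the Input labelled DLD-1, against 1.97 (1.76 to 2.19) and 1.94 (1.79 to 2.11) in the Input labelled SW480 and the RIP library labelled DLD-1. PMS2 is uncertain, because 11 rows of the table are near-copies of it by name, of which 7 to 8 were above 0 and summed to 19.5 to 38.3 FPKM in these libraries.

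EXO1 (ENSG00000174371, chr1:241847986-241889939, plus strand) stood at 4.54 FPKM in the RIP library labelled SW480, 14.7 in its Input, 12.6 in RIP labelled DLD-1 and 5.12 in its Input. The 2 high and the 2 low values thus fell in the pairs opposite to those of MSH6. POLE (ENSG00000177084, chr12:132623762-132687342, minus strand) stood at 4.82, 17.4, 7.29 and 6.08 FPKM, and POLD1 (ENSG00000062822, chr19:50384323-50418018, plus strand) at 9.75, 23.3, 13.1 and 9.58 FPKM. For both polymerases the Input labelled SW480 lay above the other 3 libraries. POLE was below POLD1 per length in every library of the RIP table, at a ratio of 0.495 to 0.746. In the Inputs of the acRIP table the ratio was 0.471 under SW480 and 0.300 under DLD-1.

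**Figure D1:**
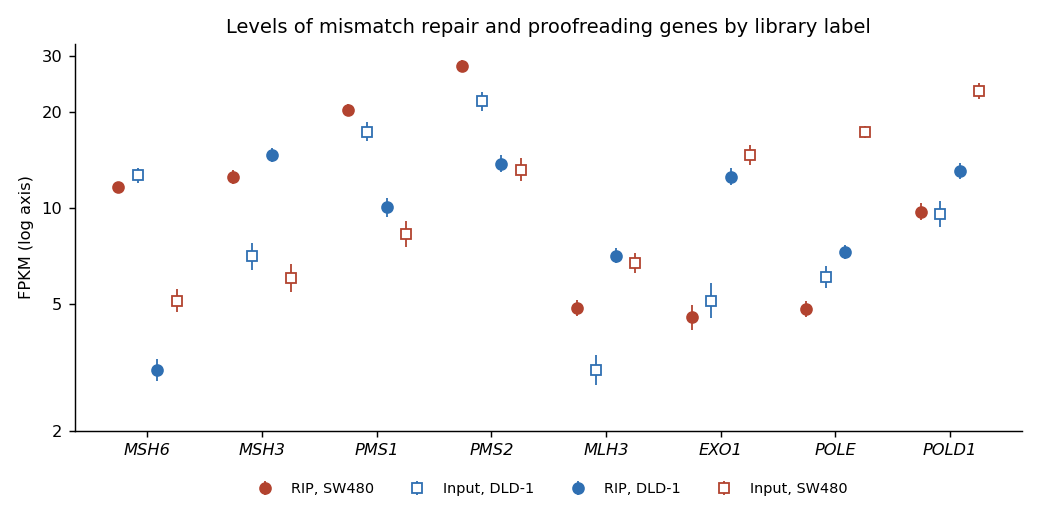
FPKM of each gene (log axis) in the 4 libraries of the RIP-seq table, with filled circles for RIP, open squares for Input, red for libraries labelled SW480 and blue for DLD-1; bars are 95% counting intervals. The RIP library labelled SW480 and the Input labelled DLD-1 lie together for MSH6 (11.6 and 12.7 FPKM) and EXO1 (4.54 and 5.12), whereas both RIP libraries lie above both Inputs for MSH3.

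The order of the genes therefore differed between libraries. In the RIP library labelled SW480 it ran from PMS2 down through PMS1, MSH3, MSH6 and POLD1 to MLH3, POLE and EXO1. The last 3 genes lay at 4.87, 4.82 and 4.54 FPKM, and no neighbours among them differed beyond counting error. In the Input labelled SW480 it ran from POLD1 through POLE, EXO1, PMS2, PMS1, MLH3 and MSH3 to MSH6, with EXO1 and PMS2, and MLH3 and MSH3, within counting error. In the RIP library labelled DLD-1, MSH3, PMS2, POLD1 and EXO1 stood at 14.7, 13.8, 13.1 and 12.6 FPKM, each within counting error of the next, and MSH6 was last. In the Input labelled DLD-1 the order was PMS2, PMS1, MSH6, POLD1, MSH3, POLE, EXO1 and MLH3, and every neighbour differed beyond counting error.

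The genes whose pattern was most like that of MSH6 were then sought among 11604 protein-coding genes, over the 4 libraries and the 2 Input columns of the acRIP table. The measure was the Euclidean distance between log2(FPKM + 1) values centred on each gene's mean, whose median over all genes was 1.82. ATP11A, a phospholipid flippase, was nearest at a distance of 0.22, and NRIP1, a nuclear receptor corepressor, lay at 0.27. ATP11A stood at 23.7, 13.1, 8.12 and 30.4 FPKM in the RIP and Input libraries labelled SW480 and then those labelled DLD-1.

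The Inputs of both labels were compared next, to ask how expression of the genes differed between lines, with directions that rest on the Input labels. Differences are log2((FPKM + 1) / (FPKM + 1)), which makes changes of low genes look smaller, and 2-fold was taken as the call. The Input labelled SW480 was at least 2-fold above that labelled DLD-1 for 3 of the 8 genes and at least 2-fold below it for 1, against 11.5% and 16.7% of all genes tested. The 3 were POLE (1.38, counting interval 1.26 to 1.49), EXO1 (1.36, 1.18 to 1.54) and POLD1 (1.20, 1.06 to 1.34). MSH6 was the 1 below, at -1.16 (-1.28 to -1.04). PMS1 at -0.99 (-1.14 to -0.83) lay just inside the call, MLH3 was at 0.91, PMS2 at -0.68 and MSH3 at -0.20. The median was 0.36, against -0.06 for all genes tested. A change of pseudocount from 1 to 0.1 FPKM raised the count from 4 to 6 and the shares of all genes to 14.9% higher and 20.6% lower.

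GEO lists 1 Input per line, and the table that accompanies the acRIP-seq data gives Input values for both lines again. Whether both tables count the same Input libraries is not known. The second values were not taken as replicates, and were read in FPKM, although the authors name no unit. Between the RIP and acRIP tables, VIM went from 11.1 to 51.2 in the Input labelled DLD-1. In that labelled SW480, POLE went from 17.4 to 7.46, whereas EXO1 stood at 14.7 and 13.0. There MSH6 stood at 4.10 and 7.11 in the Inputs labelled SW480 and DLD-1, EXO1 at 13.0 and 3.997, POLE at 7.46 and 2.06, and POLD1 at 15.8 and 6.87. EXO1 (1.49), POLE (1.47) and POLD1 (1.10) were again at least 2-fold higher, and 0 of the 8 were 2-fold lower, against 11.5% and 14.5% of all genes tested. MSH6 was at -0.67, PMS2 at -0.80, PMS1 at -0.76 and MLH3 at 0.94. Apart from MSH3 (0.06), each gene had the same sign in both tables.

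Between the RIP libraries, SW480 over DLD-1 was at least 2-fold higher for 1 of the 8 genes and lower for 1, against 11.8% and 7.74% of all genes tested. MSH6 was the gene above, at 1.62 (1.52 to 1.73), and EXO1 the gene below, at -1.29 (-1.43 to -1.16). PMS2 (0.97) and PMS1 (0.95) lay near the call, POLE was at -0.51, MLH3 at -0.46, POLD1 at -0.39 and MSH3 at -0.22. For 7 of the 8 genes the sign in RIP was opposite to that in the Inputs, as it was for 73.0% of all genes tested. MSH3 was the exception.

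**Figure D2:**
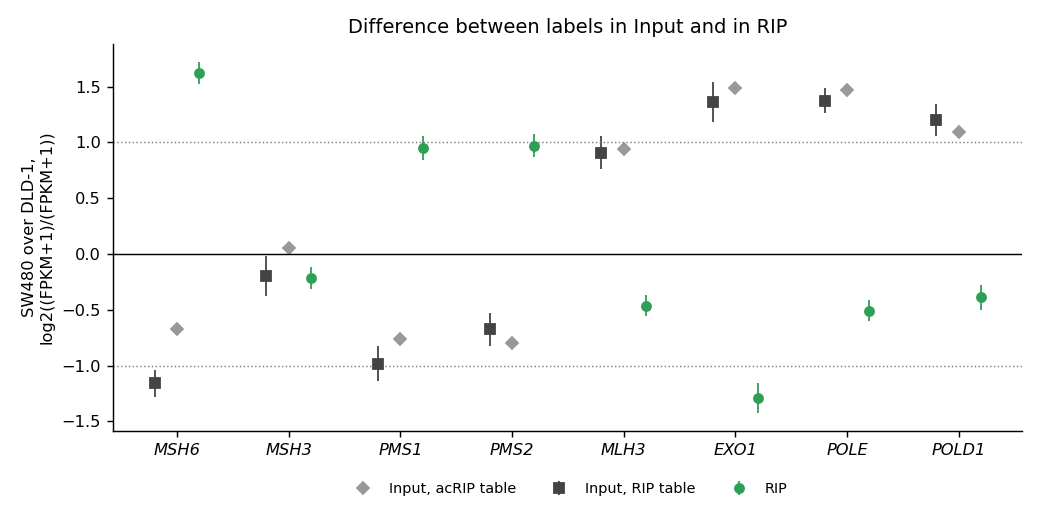
SW480 over DLD-1 on the log2((FPKM+1)/(FPKM+1)) scale for each gene in the Inputs of the RIP table (squares), the Inputs of the acRIP table (diamonds, no interval) and the RIP libraries (circles); bars are 95% counting intervals and dotted lines mark 2-fold. MSH6 lies at -1.16 in Input and 1.62 in RIP, and EXO1 at 1.36 and -1.29.

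RIP over Input was used to ask whether the mRNAs were enriched with NAT10. In libraries labelled SW480, RIP was at least 2-fold above Input for 3 of the 8 genes and below it for 3, against 21% and 16.6% of all genes tested. PMS1 (1.20, counting interval 1.06 to 1.34), MSH6 (1.04, 0.93 to 1.16) and PMS2 (1.03, 0.90 to 1.16) were the 3 above. POLE (-1.66, -1.75 to -1.57), EXO1 (-1.505, -1.65 to -1.36) and POLD1 (-1.18, -1.29 to -1.06) were the 3 below. MSH3 was at 0.95 and MLH3 at -0.39. After centring on protein-coding genes, whose median was 0.25, 0 of the 8 were 2-fold above Input and 3 below, with PMS1 at 0.95, MSH6 at 0.79 and PMS2 at 0.78, against 15.7% and 21.0% of all genes. In libraries labelled DLD-1, 1 of the 8 was at least 2-fold above, EXO1 at 1.15 (0.98 to 1.32), and 1 below, MSH6 at -1.74 (-1.86 to -1.63), against 17.4% and 22.5% of all genes tested. MLH3 (0.98), MSH3 (0.97), POLD1 (0.41) and POLE (0.23) were above Input and PMS1 (-0.73) and PMS2 (-0.62) below it.

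The sign of RIP over Input was thus opposite between labels for 7 of the 8 genes, against 47.6% of all genes tested. Over the Input of the other label, which is the Input each RIP library resembled more, it was opposite for 1, POLD1, against 21.5% of all genes. There 0 of the 8 genes passed 2-fold for the RIP library labelled SW480, against 11.2% higher and 11.8% lower of all genes. For the RIP library labelled DLD-1, 1 was higher and 1 lower, against 11.3% and 11.5%. MSH6 moved from 1.04 and -1.74 to -0.12 and -0.58, and EXO1 from -1.505 and 1.15 to -0.14 and -0.21. POLE was at -0.28 and -1.15, POLD1 at 0.02 and -0.79, PMS1 at 0.22 and 0.25, PMS2 at 0.35 and 0.06, and MLH3 at 0.52 and 0.07. Both Inputs enter both ways of pairing, so the ratios are not independent of each other.

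MSH3 was the one gene of the 8 above Input in all 4 pairings with the Inputs of the RIP table. Its ratios were 0.95 and 0.97 over the Input of the same label and 0.75 and 1.16 over the other. A lowest ratio of at least 0.75 was found for 981 genes, or 6.50% of those tested, and 25.3% had all 4 ratios above 0. Of the 16 partner genes listed below, 9 also had all 4 above 0, counted by sign alone and some within counting error of 0. Among them RPA2 stood at 0.93 and 0.81 over the Input of the same label and at 0.82 and 0.92 over the other. The ratios of MSH3 depended on the Input table. Over the acRIP-table Inputs, centred on protein-coding genes, they were -0.09 and 0.32 for the same label and 0.03 and 0.28 for the other. NAT10 mRNA itself stood at 20.8 and 14.3 FPKM in RIP labelled SW480 and DLD-1 and at 21.2 and 23.0 in the Inputs.

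**Figure D3:**
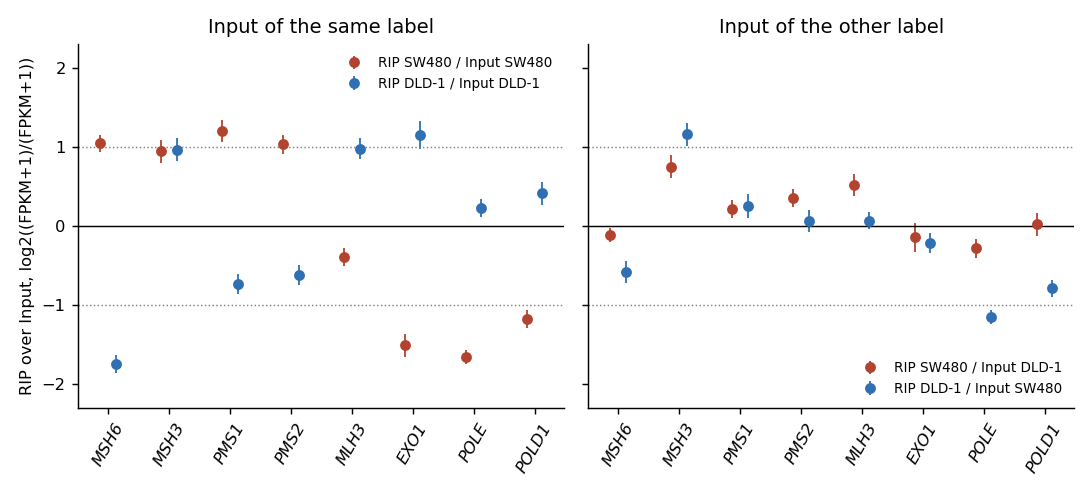
RIP over Input on the log2((FPKM+1)/(FPKM+1)) scale over the Input of the same label (left) and of the other label (right), in red for the RIP library labelled SW480 and blue for that labelled DLD-1; bars are 95% counting intervals and dotted lines mark 2-fold. On the left the colours take opposite signs for every gene but MSH3, and on the right the values lie between -1.15 and 1.16.

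Promoters were read for the gene highest in RIP labelled SW480 over RIP labelled DLD-1 and for both polymerases, which were higher together in the Input labelled SW480. Shown are the bases before the first RefSeq start (GRCh38.p14), 5′ to 3′ on the gene's strand, cut where a neighbouring gene begins. Capitals mark the GC box GGGCGG, read on both strands.
MSH6, chr2:47782895-47783144, plus strand: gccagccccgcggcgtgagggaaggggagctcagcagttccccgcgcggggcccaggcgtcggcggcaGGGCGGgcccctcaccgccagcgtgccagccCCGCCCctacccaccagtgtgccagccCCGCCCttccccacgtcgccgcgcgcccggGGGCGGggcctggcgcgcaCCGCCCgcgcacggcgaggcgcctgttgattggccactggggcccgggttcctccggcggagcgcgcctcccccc
POLE, chr12:132687343-132687586, minus strand: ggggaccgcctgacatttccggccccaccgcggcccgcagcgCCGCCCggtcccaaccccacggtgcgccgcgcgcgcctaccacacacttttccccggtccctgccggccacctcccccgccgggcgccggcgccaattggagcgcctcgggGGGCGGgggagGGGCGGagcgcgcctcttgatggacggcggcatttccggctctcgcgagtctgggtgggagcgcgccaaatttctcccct
POLD1, chr19:50384073-50384322, plus strand: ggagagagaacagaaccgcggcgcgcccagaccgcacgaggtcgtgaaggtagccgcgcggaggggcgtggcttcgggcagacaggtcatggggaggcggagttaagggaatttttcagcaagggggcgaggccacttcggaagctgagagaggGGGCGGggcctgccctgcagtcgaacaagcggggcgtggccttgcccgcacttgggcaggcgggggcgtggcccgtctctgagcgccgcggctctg

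In the 250 bases before the start, MSH6 held 5 GC boxes, POLE 3 and POLD1 1. At least 1 was found for 7 of the 8 genes, all but MLH3, against 42.3% of 27305 promoters of the same length. The E2F-type pattern TTTNNCGC, on either strand, was found for MSH3, PMS2 and POLE, against 5.93% of all promoters. CCAAT was found for MSH6, PMS1, PMS2 and POLE, against 33.0%, and the matches in POLE include an overlapping pair on opposite strands. The 4 genes past 2-fold between the Inputs, POLE, EXO1, POLD1 and MSH6, all held a GC box, and EXO1 and POLD1 held neither of the other patterns. These letters are a description and not evidence of binding.

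The other genes of the same reaction were examined as a list of 16 partners: the sliding clamp PCNA, its loader RFC1 to RFC5, the single-strand binding proteins RPA1 to RPA3, the ligase LIG1 and the accessory polymerase subunits POLD2 to POLD4 and POLE2 to POLE4. In Input SW480 over DLD-1, 1 of the 16 was at least 2-fold higher, LIG1 at 1.79, and 2 were lower, RPA3 at -1.25 and POLE4 at -1.02, with a median of 0.26. Of all genes tested, 11.5% were higher and 16.7% lower. LIG1 stood at 26.5 and 6.95 FPKM in the Inputs labelled SW480 and DLD-1 and at 5.81 and 13.1 in the RIP libraries, the same order as EXO1. Of the accessory subunits, POLD3 (0.74), POLE3 (0.58) and POLE2 (0.55) had the sign of the catalytic ones, and POLD2 (-0.32) and POLD4 (-0.19), like POLE4, had the other. PCNA was at 0.55. In the acRIP table POLD3 was at 1.17, POLE2 at 0.80, POLE3 at 0.57, POLD2 at -0.34 and POLD4 at -0.28. POLE4 changed sign there, to 0.58, and its Inputs rest on 68 and 145 reads.

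In the RIP libraries, SW480 over DLD-1 was 2-fold lower for 1 partner, LIG1 at -1.05, and higher for 0, against 7.74% and 11.8% of all genes tested. RIP over Input had medians of 0.08 and 0.78 over the partners under the labels SW480 and DLD-1, beside 0.28 and 0.32 for the 8 genes and 0.13 and -0.04 for all genes tested. Under the label SW480, 2 partners were 2-fold above Input and 2 below, and under DLD-1 3 were above and 0 below. The shares of all genes tested were 21% and 16.6% under SW480 and 17.4% and 22.5% under DLD-1. By sign alone, 9 of the 16 partners were above Input under both labels, against 27.0% of all genes tested: RFC1 to RFC5, RPA2, POLD3, POLE3 and POLE4. Under SW480 the counting intervals of RFC2 (0.03, -0.11 to 0.18), RFC3 (0.09, -0.06 to 0.24), RFC4 (0.05, -0.11 to 0.20) and POLE3 (0.03, -0.09 to 0.15) held 0. These values also lay below the median of protein-coding genes there, 0.25. Under DLD-1 the interval of RFC2 held 0 too (0.14, -0.01 to 0.30). Of the 9, POLE4 had the highest ratio, 2.14 under SW480 with 0.72 under DLD-1, and RPA2 stood at 0.93 and 0.81.

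Genes of DNA replication were set beside these values. Of 16 S-phase genes (the helicase subunits MCM2 to MCM7, CDC45 and GINS1 to GINS4, the nucleotide enzymes RRM1, RRM2 and TYMS, and the regulators CCNE1 and E2F1), 5 were at least 2-fold higher in the Input labelled SW480 than in that labelled DLD-1 and 0 lower. Of all genes tested, 11.5% were higher and 16.7% lower. The S-phase genes had a median of 0.91, against -0.06 for all genes tested. Above 0 lay 14 of the 16, all but MCM7 (-0.48) and E2F1 (-0.01). The highest was CDC45 at 2.20, above EXO1, POLE and POLD1. In the RIP libraries 4 of the 16 were 2-fold lower and 0 higher, against 7.74% and 11.8% of all genes tested. The median was -0.76, against 0.03 for all genes tested. The part of proliferation in the values of EXO1, POLE and POLD1 was not tested.

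**Figure D4:**
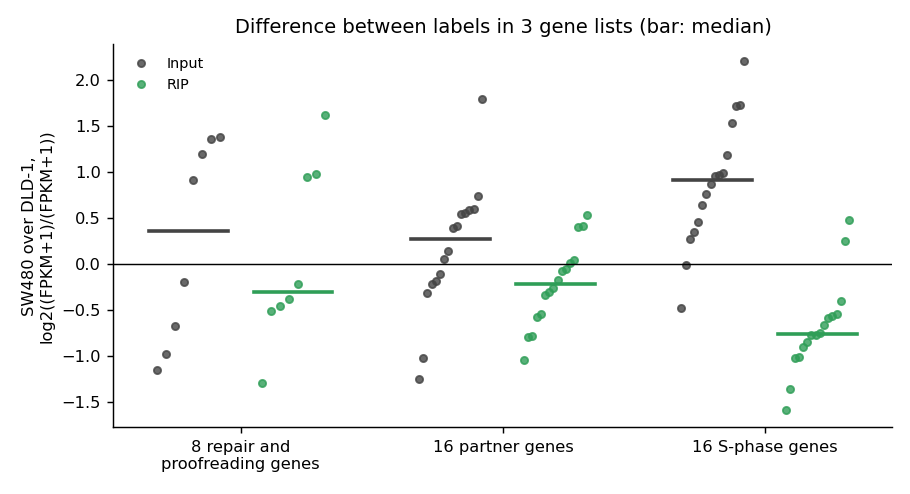
SW480 over DLD-1 on the log2((FPKM+1)/(FPKM+1)) scale in the Inputs (grey) and in the RIP libraries (green); points are genes, sorted within each of the 3 lists, and bars are medians. The S-phase genes have medians of 0.91 in Input and -0.76 in RIP, and the 8 repair and proofreading genes spread from -1.16 to 1.38 in Input.

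ac4C on the transcripts was read from the peaks the authors called for each acRIP library. Each peak has a fold of acRIP over Input within it. In the list for SW480, 3 of the 8 genes carried 5 peaks, against a peak on 47.7% of the 11605 protein-coding genes tested. In the list for DLD-1, 5 of the 8 carried 15 peaks, against 52.6%. PMS1, PMS2 and MLH3, the MutL genes, had no peak in either list or in the list called on the pooled libraries. The highest false discovery rate given by the authors for any of these 20 peaks was 0.0490. The lists differ in length, with 9536 peaks for SW480 and 13964 for DLD-1, and the depth of the acRIP libraries is unknown. VIM had 1 peak in the list for SW480 and 0 in that for DLD-1, whereas its level in the acRIP-table Inputs was 0.0881 and 51.2. KRT20 had 0 peaks in both lists. Each fold is relative to an Input, and the part of the Input labels in the folds was not tested.

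POLD1 carried the strongest peaks. In the list for SW480 a peak of 184-fold at chr19:50417042-50417988 covered 301 bases in 3 blocks at the end of the gene, and the authors place it in coding sequence. In the list for DLD-1 a peak of 96.8-fold at chr19:50416603-50417988 contained all 301 of these bases. A second peak there, of 80.2-fold at chr19:50413501-50415493, had no counterpart in SW480. Among all peaks of their lists, the 184-fold and 96.8-fold peaks ranked at percentiles 94.0 and 94.1 of fold. The other POLD1 peaks were weaker, at 3.90 and 5.55-fold in SW480 and 11.0-fold in DLD-1, and lay in the middle of the gene without overlap between lines.

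MSH6 had 1 of the 9536 peaks in SW480 and 6 of the 13964 in DLD-1. The SW480 peak, 82.2-fold at chr2:47806347-47806896, overlapped a DLD-1 peak of 32.3-fold at chr2:47803655-47806470 by 31 bases. The other 5 DLD-1 peaks were of 5.51 to 10.2-fold. Of these, 4 lay between 15.9 and 17.6 kb from the gene's start and the last at 24.1 kb, in the 3′ untranslated region by the authors' label. Of the protein-coding genes tested, 1.44% had at least 6 peaks in the list for DLD-1, and 1.10% had an excess over SW480 at least as large as that of MSH6. In the pooled list MSH6 had 5 peaks, the highest of 56.2-fold.

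EXO1 and MSH3 had peaks in DLD-1 alone, 2 each. Those of EXO1 were of 17.3-fold at chr1:241858565-241860543 and 7.08-fold at chr1:241878766-241878946, and those of MSH3 of 7.87 and 5.90-fold. The first EXO1 peak was also in the pooled list, at 19.9-fold, whereas no MSH3 peak was. POLE had 1 peak in SW480, 19.8-fold at chr12:132648959-132649342, and 2 in DLD-1, 18.9-fold at chr12:132641850-132642325 and 11.8-fold at chr12:132668735-132672263, with no overlap between lines. The authors label all 3 as 3′ untranslated region, but their middles lie 38.2, 45.3 and 16.8 kb from the start of a gene of 63.6 kb.

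**Figure D5:**
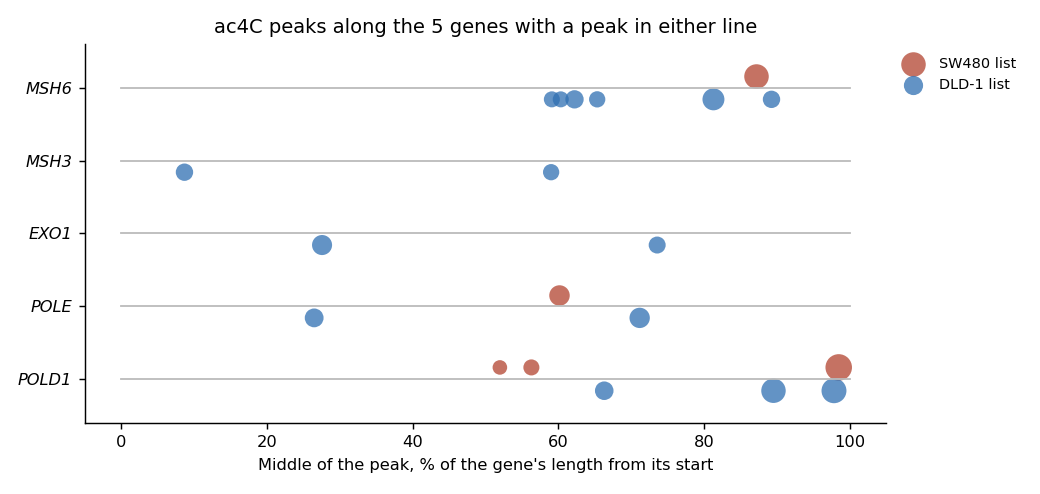
Middle of each ac4C peak, as a percentage of the gene's length from its RefSeq start, for the 5 genes with a peak, in red above the line for the list of SW480 and in blue below it for DLD-1; the area of a point grows with the logarithm of the peak's fold over Input. POLD1 has its 184-fold and 96.8-fold peaks at 98.5% and 97.9% of its length, and MSH6 has 6 blue points to 1 red.

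Of the 5 peaks in SW480, 2 shared at least 1 base with a DLD-1 peak, 1 on MSH6 and 1 on POLD1. Of these, 1, on POLD1, shared at least 50% of both peaks. The share of all SW480 peaks that overlap a DLD-1 peak is not given here, so these counts have no background to be read against. By the authors' label 4 of the 5 and 12 of the 15 peaks lay in coding sequence, against 24.3% and 38.4% of all peaks in the lists. The median fold was 19.8 in SW480 and 10.2 in DLD-1, against 19.5 and 14.6 over all peaks. The lists also count sites of the authors' ac4C pattern, in which C recurs at even spacing. The POLD1 peaks held 8 sites in SW480 and 14 in DLD-1 and the POLE peaks 1 and 6, whereas those of MSH6, MSH3 and EXO1 held none. At least 1 site was found in 4 of the 5 and in 5 of the 15 peaks, against 56.2% and 55.1% of all peaks.

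Peaks and RIP over Input were set side by side for each label. MSH6 had more peaks in DLD-1, where RIP was below Input at -1.74. Over the Input of the other label it was at -0.58. POLD1 had its peak of highest fold in SW480, where RIP was below Input at -1.18, or at 0.02 over the other Input. Within their own lists its highest peaks ranked alike, at percentiles 94.0 in SW480 and 94.1 in DLD-1. MSH3, above Input in all 4 pairings of the RIP table, had no peak in SW480 and peaks of 7.87 and 5.90-fold in DLD-1. PMS1 and PMS2 had no peak. In RIP labelled SW480 they stood at 1.20 and 1.03 over the Input of the same label and at 0.22 and 0.35 over the other. With 8 genes and 1 library per group this is a description.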

How the data were processed

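Cells, Input, RIP and acRIP libraries were prepared by the submitters and processed by a sequencing provider. Per the labels' processing notes, cutadapt 2.5, HISAT2 2.1.0 and the builds GRCh38, hg38 and GRCm38 were named; the counting tool, its use of strand and the peak caller are not given in the sources used here. The authors deposited FPKM per Ensembl gene for RIP and Input, and a second table of Input values read here as FPKM. Their RIP to Input ratio columns were not used. The deposited peak lists give a p-value, a base-10 logarithm of the false discovery rate, an acRIP over Input fold ratio and a count of pattern sites per peak, and peaks whose logarithm was lost, all with a p-value of 0, were taken as past any threshold.

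Columns were mapped to samples by label. Fold differences were log2 ratios with a pseudocount of 1 FPKM over the 15086 genes with a mean of at least 1 FPKM in 4 libraries. Whole reads (tolerance 0.001) were solved from the FPKM steps for 23494 of 23515 genes above 0 in at least 2 columns. They are the smallest whole numbers, so the 95% counting intervals are at their widest, and they hold no other error, since copies made by PCR are not separate molecules. Peak starts were counted from 1 and overlap was at least 1 base on 1 strand within the blocks. Gene positions and promoters came from RefSeq (GRCh38.p14), where all 8 genes matched. Named were the 8 genes with all their peaks, 16 partners, near-copies of PMS2, NAT10 and the 3 genes nearest to MSH6, and 16 S-phase genes by count and median; 1 of the nearest genes is not reported here. CDC45, MCM7 and E2F1 among these and the marker genes VIM, KRT20, CDX1, CD3E and COL3A1 were chosen after their values were seen. Members and lists were chosen with earlier results of these data known. Scripts used Python 3.11.15, numpy 2.4.6, pandas 2.3.3 and matplotlib 3.10.9 and were tested on simulated data. Pseudocount, filter, centring, call, Input and peak threshold were varied.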

Additional observations from a re-analysis of the deposited data

Results flagged for a closer look

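Ratios of RIP to Input took opposite signs between the labels SW480 and DLD-1 for 7 of the 8 genes, which is why they are listed here. With 1 library per group the difference was not tested. SW480 minus DLD-1 on the log2 scale was 2.78 for MSH6, 1.93 for PMS1 and 1.65 for PMS2. It was -2.65 for EXO1, -1.89 for POLE, -1.59 for POLD1 and -1.37 for MLH3. Over the Inputs of the other label the same differences were 0.46 for MSH6, -0.04 for PMS1, 0.30 for PMS2, 0.07 for EXO1, 0.87 for POLE, 0.81 for POLD1 and 0.45 for MLH3.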

How the results depend on the processing

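No paired analysis was possible because the comparisons rest on 1 library per group, with no replicate numbers in the labels; a fit that takes both lines as replicate pairs of RIP and Input was not run. The counts of genes past 2-fold, in either direction, were 4 for the Inputs, 6 and 2 for RIP over Input labelled SW480 and DLD-1, and 2 for RIP over RIP. A 1.5-fold call gave 7 for the Inputs, 6 for RIP over Input labelled DLD-1 and 4 for RIP over RIP, since a lower call admits more genes. The shares of all genes past 1.5-fold are not given here, so these counts have no background to be read against. A pseudocount of 0.1 FPKM gave 4 for RIP over Input labelled DLD-1 and 4 for RIP over RIP. Of all genes tested, 21.1% were then 2-fold higher and 26.1% lower for the former, and 16.3% and 11.2% for the latter. Centring on protein-coding genes left 3 of 6 in SW480, all of them lower in RIP, and the acRIP-table Input of the same label left 1 of 2 in DLD-1. Beside the first count, 15.7% of all genes tested were 2-fold higher and 21.0% lower. Beside the second, 15.4% were higher and 22.3% lower. The Input of the other label left 0 of 6 in SW480, against 11.2% of all genes higher and 11.8% lower. That of the acRIP table, an alternative chosen after seeing the data, left 0 in both. With it, 8.34% of all genes were higher and 13.3% lower for RIP labelled SW480. For RIP labelled DLD-1 these shares were 9.74% and 12.3%. The Input of the other label turned MSH6 to -0.12 and POLD1 to 0.023 in SW480 and EXO1 to -0.21 in DLD-1, and its acRIP-table version turned MSH6 to -0.021, POLE to 0.27 and EXO1 to -0.61. The acRIP-table Input of the same label took MSH3 from 0.95 to -0.09 in SW480. The cause was not tested. Peaks with a p-value under their list's median lay on 2 genes instead of 5 in DLD-1, and 1 peak instead of 2 was shared when at least 50% of each had to overlap. The shares of all genes and of all peaks under these peak settings are not given here, so these counts have no background either. Of 184 values of single genes under alternatives, 117 stayed within counting error and 19 changed sign, 17 of them over an Input of the other label. With 1 library per group, no spread between replicates is known.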

Other observations

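ac4C peaks were also counted on the partners of the 8 genes and on S-phase genes. In the list for SW480, 11 of the 16 partners and 14 of the 16 S-phase genes carried a peak, and in the list for DLD-1 12 and 15 did, beside 3 and 5 of the 8 repair and proofreading genes and 47.7% and 52.6% of the protein-coding genes tested. Among the accessory polymerase subunits POLE3 carried 2 peaks in SW480 and 4 in DLD-1, and POLD3 1 and 3. LIG1 carried 2 in SW480 and 0 in DLD-1. The levels of these genes differ, and no test was made.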
